A study of Mus musculus with 10 samples.

Results

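Bone marrow pro-B cells, sorted ex vivo by surface markers that included B220 and Kit and excluded CD2, IgM and IgD, were the cells measured. Those whose only functional *Pax5* allele encoded the R31Q protein were compared with those whose only functional allele was wild type. *Pax5*(R31Q/-) cells carried the R31Q allele over a null allele, *Pax5*(+/-) cells carried a wild-type allele over a null allele, and each genotype had 2 RNA-seq libraries, so 4 of the 10 samples of the series entered the comparison. The genes compared were those with at least 1 TPM (reads of a gene divided by its length and scaled to the same total in every library) in at least 1 of these 4 libraries, which held for 12757 of the 25579 genes in the tables. *Rell2* entered with 1.0004 TPM in its highest library, and *Stk39* stayed out with 0.9998 TPM. The 2 *Pax5*(+/+) and the 2 *Pax5*(fl/fl) *Vav*-Cre libraries served as outer references. In the latter, a Cre recombinase under the *Vav* regulatory elements deletes floxed *Pax5* in blood-forming cells. The labels call these last cells progenitors rather than pro-B cells, so in comparisons with them the loss of *Pax5* and the cell population cannot be told apart. The mice were on a C57BL/6 background, with the R31Q allele made in C57BL/6 × CBA zygotes and then backcrossed. The age of the mice whose cells were sorted for RNA-seq and whether several were pooled for a library are not given in the sources used here, so p-values measure the spread between libraries, which may be technical.

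*Pax5* encodes the paired-domain transcription factor that commits lymphoid progenitors to the B cell lineage. It activates genes of pre-B cell receptor signaling and cell adhesion and represses genes of other lineages. A heterozygous null mutation lowers the amount of normal protein, whereas R31Q replaces an arginine by a glutamine in the paired domain, which binds DNA. Setting *Pax5*(R31Q/-) against *Pax5*(+/-) therefore asks what the amino acid change does when both genotypes have 1 transcribed coding allele of this kind.

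The designed sequences of the R31Q allele are shown because they define the only intended difference between the genotypes. The repair template matched chr4:44697526-44697725 of GRCm38 on the minus strand, across the start of exon 2 of *Pax5*, apart from 4 bases. The lines below give the reference and the template 5′ to 3′, with these 4 bases in capitals, and the guide RNA target (chr4:44697614-44697636) with its PAM in capitals.
Reference: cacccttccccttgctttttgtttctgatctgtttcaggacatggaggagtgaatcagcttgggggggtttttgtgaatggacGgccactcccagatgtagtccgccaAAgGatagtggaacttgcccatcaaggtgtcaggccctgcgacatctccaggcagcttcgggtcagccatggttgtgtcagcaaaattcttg
R31Q template: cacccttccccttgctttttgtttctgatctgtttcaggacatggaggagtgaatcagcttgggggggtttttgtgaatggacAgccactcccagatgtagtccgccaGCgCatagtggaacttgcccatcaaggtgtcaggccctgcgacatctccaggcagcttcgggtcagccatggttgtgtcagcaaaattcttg
Guide and PAM: tcccagatgtagtccgccaaAGG
Counted from 1 at the 5′ end of the template, G84A turned codon 31 from CGG into CAG. The other substitutions, A109G, A110C and G112C, lay in codons 39 and 40 and were silent. A109G fell on the last base of the guide target, and A110C and G112C fell in the PAM.

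The depth on genes, recovered from the steps between TPM values, ranged from 32458596 to 34488454 reads in the 4 libraries. The pro-B cell markers were abundant in each of them. The 14 listed markers summed to 16671 and 15926 TPM in *Pax5*(+/-) and to 15819 and 16260 TPM in *Pax5*(R31Q/-) libraries. *Cd3e*, a defining T cell gene, stayed at or under 0.353 TPM. Myeloid transcripts were present, with the 16 listed markers summing to 1220 and 2330 TPM in *Pax5*(+/-) and to 1498 and 1381 TPM in *Pax5*(R31Q/-) libraries, and 0 of them passed the test between the genotypes.

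*Pax5* mRNA was present at a similar level in both genotypes. It had 272 and 287 TPM in the *Pax5*(+/-) libraries (279 ± 10.3, SD, n = 2) and 306 and 293 TPM in the *Pax5*(R31Q/-) libraries (299.6 ± 9.29). The groups did not overlap, but the log2 fold change of 0.10 (standard error, SE, 0.11, 95% interval -0.16 to 0.36, limma adjusted p = 0.873) was within the error. *Pax5*(+/+) libraries had 418 and 444 TPM. The *Pax5*(fl/fl) *Vav*-Cre libraries had 1242 and 1409 TPM of *Pax5*, and because the values are sums over the gene they do not show a deleted exon and do not check that label. Protein was not measured in these files. By intracellular staining, the paper reports an equal amount of Pax5 protein in *Pax5*(R31Q/-) and *Pax5*(+/-) pro-B cells.

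The test was limma, fitted to log2(TPM + 1) for the 13436 genes with at least 1 TPM in any of the 8 libraries. On this scale the change of a weakly expressed gene is understated. Calls required an adjusted p (Benjamini-Hochberg, over all genes tested) under 0.05, more than a 3-fold difference and, in one of the genotypes, a mean above 5 TPM, with immunoglobulin genes left out. By this rule 16 genes (0.119% of genes tested) were called lower in the R31Q than in the heterozygous cells and 12 (0.0893%) were called higher. At an adjusted p under 0.05 with any fold, 47 genes were lower (0.35%) and 36 were higher (0.268%). The median log2 fold change over all genes tested was 0.01, and the *Pax5*(R31Q/-) libraries did not overlap the *Pax5*(+/-) libraries for 55.7% of genes, so a lack of overlap alone marks little. With 2 libraries against 2, an exact permutation test cannot go below p = 0.333, and the p-values depend on the variance information limma borrows from all genes. The counts rest on all 4 libraries. Without *Pax5*(+/-) replicate 1 or either *Pax5*(R31Q/-) library, 0 genes were called and 0 had an adjusted p under 0.05 from limma, with 573, 738 and 660 genes at an unadjusted p under 0.05. Without *Pax5*(+/-) replicate 2, 5 genes were called lower and 2 higher. Of the 18 genes that the study names with these data, 11 were lower and 1 was higher at an adjusted p under 0.05, a list chosen on these same libraries and so not independent evidence of direction. Several of the 18 are also members of the gene lists below. The counts of those lists therefore partly restate the choice of the study.

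**Figure D1:**
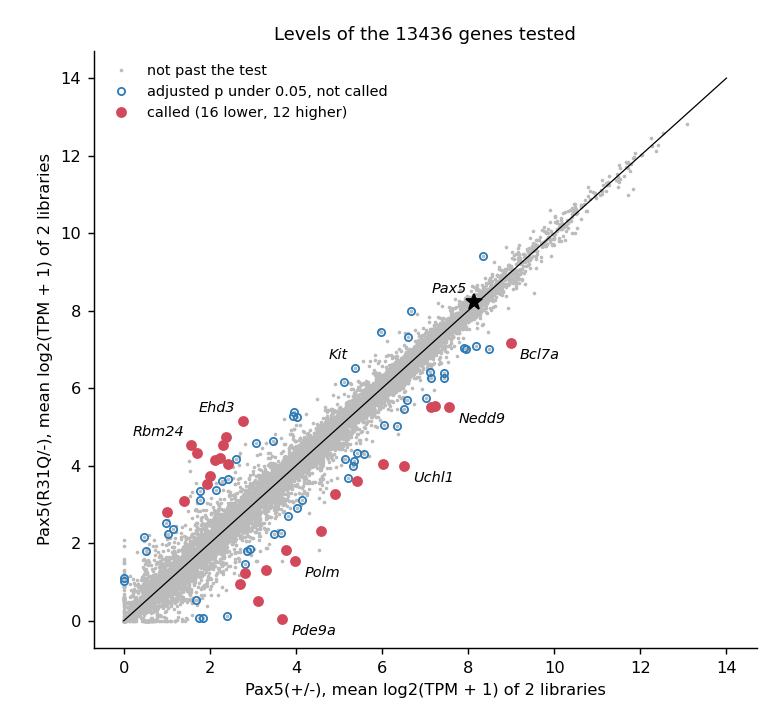
Each point is 1 of the 13436 genes tested, with its mean log2(TPM + 1) in the 2 Pax5(+/-) libraries on the horizontal axis and in the 2 Pax5(R31Q/-) libraries on the vertical axis. Filled red points are the 16 genes called lower and 12 called higher, open blue circles are other genes at an adjusted p under 0.05, the star is Pax5, and the line marks equal levels.

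The gene with the largest difference was *Pde9a*, which encodes a cGMP-specific phosphodiesterase and lies on chromosome 17 from 31386105 to 31476309, overlapping *Gm9902* on the other strand. It had 15.2 and 9.22 TPM in the *Pax5*(+/-) libraries and 0.0696 and 0 TPM in the *Pax5*(R31Q/-) libraries. Its transcript was thus present in both heterozygous libraries and near absent from both R31Q libraries. The log2 fold change was -3.64 ± 0.30 (SE, with a limma adjusted p of 0.00491). In reads, 2 in *Pax5*(R31Q/-) stood against 684 in *Pax5*(+/-), a depth-adjusted ratio of 0.29% (exact binomial interval 0.035% to 1.05%, counting error only). Of the 24 tested genes of cyclic nucleotide signaling, which include phosphodiesterases, adenylate cyclases and protein kinase A subunits, *Pde9a* fell, 0 rose and 23 did not pass. *Pde8a*, a cAMP-specific phosphodiesterase, had 5.02 and 7.69 against 15.2 and 15.7 TPM, and *Rapgef3*, a cAMP-activated exchange factor for Rap GTPases, had 6.92 and 5.20 against 29.98 and 17.0 TPM. Both had higher values in each R31Q library, with a limma adjusted p of 0.0663 for either.

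*Uchl1*, a ubiquitin C-terminal hydrolase gene on chromosome 5 from 66676121 to 66687234, fell by 2.499 ± 0.17 on the log2 scale (SE, with a limma adjusted p of 0.004). It had 99.2 and 81.2 TPM in *Pax5*(+/-) and 15.2 and 14.9 TPM in *Pax5*(R31Q/-) libraries. A large residual level thus remained, unlike for *Pde9a*. It overlaps *Uchl1os* on the other strand, and whether reads were assigned by strand is not given in the sources used here.

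*Polm*, on chromosome 11 from 5827860 to 5838832, encodes DNA polymerase mu, which fills gaps when immunoglobulin gene segments are joined. It had 17.7 and 12.3 TPM in the heterozygous and 1.87 and 2.01 TPM in the R31Q libraries, a log2 fold change of -2.43 ± 0.21 (SE, with a limma adjusted p of 0.00577). It was the only one of 14 tested genes of V(D)J recombination and end joining that passed the test. *Rag1*, *Rag2* and *Dntt*, which encode the recombinase and terminal transferase, had log2 fold changes of 0.49, 0.50 and 0.26 and did not pass.

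Among genes of adhesion and focal adhesion adaptors, *Nedd9* and *Parvb* fell, 0 rose and 17 of the 19 tested did not pass. *Nedd9*, on chromosome 13 from 41309916 to 41487362, encodes a Cas-family scaffold of integrin and antigen receptor signaling. Its level was 186 and 189 TPM in *Pax5*(+/-) and 45.4 and 44.9 TPM in *Pax5*(R31Q/-) libraries. The 2 libraries of each genotype were nearly equal, and the log2 fold change of -2.03 (standard error 0.12) had the joint smallest adjusted p, 0.00326 from limma. *Parvb*, encoding the actin-binding adaptor beta-parvin, had 40.9 and 31.4 against 12.7 and 11.3 TPM. The integrin genes *Itga4* and *Itgb1* had log2 fold changes of 0.44 and 0.37, and *Itgb2* of -0.43, none past the test. The list median was -0.21. *Cass4*, another Cas-family gene, was outside the list and was named after its values were seen. It rose from 16.4 and 14.1 to 45.4 and 30.8 TPM (log2 fold change 1.24, limma adjusted p = 0.0456).

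The 28 tested genes of pre-B cell receptor and B cell receptor signaling held 2 genes that fell and 0 that rose. *Pik3ap1* encodes BCAP, the adaptor that couples the receptor to PI3K. It had 392 and 324 TPM in *Pax5*(+/-) and 143 and 115 TPM in *Pax5*(R31Q/-) libraries, a log2 fold change of -1.47 (limma adjusted p = 0.0121). *Sh3bp5*, encoding a Btk-binding adaptor, had 145 and 135 against 46.4 and 43.5 TPM (log2 fold change -1.62, limma adjusted p = 0.00437). *Blk*, a receptor-proximal kinase gene, had 164 and 162 against 167 and 171 TPM, nearly equal values in all 4 libraries. *Cd79a*, *Igll1*, *Blnk* and *Syk*, the core of the receptor complex and its signaling, had log2 fold changes of -0.29, -0.13, -0.28 and 0.02 and did not pass.

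*Siglecg*, encoding a sialic acid–binding inhibitory receptor of B cells, was the 1 gene of 11 tested inhibitory receptor genes that passed. Its level was 156 and 141 TPM in *Pax5*(+/-) and 44.2 and 46.3 TPM in *Pax5*(R31Q/-) libraries. The log2 fold change was -1.69 ± 0.20 (SE, with a limma adjusted p of 0.0205). The values of 9 of the other 10 members also lay below 0, with a list median of -0.40, but none of the 10 passed. *Btla* had 7.51 and 6.71 against 2.24 and 3.07 TPM, *Cd72* had 236 and 172 against 159 and 113 TPM, and *Fcgr2b* had 20.96 and 19.8 against 30.9 and 24.4 TPM.

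In the Notch pathway, *Heyl* fell, *Dtx4* rose and 18 of the 20 tested genes did not pass. *Heyl*, on chromosome 4 from 123233556 to 123249870, encodes a Hes-related repressor. It had 52.8 and 33.3 TPM in the heterozygous and 13.5 and 9.27 TPM in the R31Q libraries (log2 fold change -1.81, limma adjusted p = 0.0311). *Dtx4*, encoding a Deltex ubiquitin ligase, had 4.21 and 4.49 against 11.6 and 11.6 TPM (log2 fold change 1.23, limma adjusted p = 0.0212). The receptor gene *Notch1* had 81.7 and 79.5 against 83.8 and 71.9 TPM, and the Notch target *Hes1* had 185 and 154 against 176 and 173 TPM. The 2 genes that passed therefore moved in opposite directions beside overlapping levels of *Notch1* and *Hes1*.

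*Edaradd*, encoding a death domain adaptor of the ectodysplasin receptor, was the only one of 17 tested genes of TNF receptor signaling that passed. It had 8.54 and 9.35 TPM in *Pax5*(+/-) and 1.48 and 1.52 TPM in *Pax5*(R31Q/-) libraries (log2 fold change -1.99, limma adjusted p = 0.00472). The receptor gene *Edar* was listed at 0 TPM in all 4 libraries. *Tnfrsf13b* and *Tnfrsf13c*, the TACI and BAFF receptor genes, had log2 fold changes of -0.30 and -0.45 and did not pass.

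Among the early B lineage transcription factors, *Gfi1* fell and 19 of the 20 tested did not pass. *Gfi1*, a zinc finger repressor gene, had 43.5 and 40.3 TPM in *Pax5*(+/-) and 20.3 and 17.97 TPM in *Pax5*(R31Q/-) libraries (log2 fold change -1.09, limma adjusted p = 0.021). *Ebf1*, *Tcf3*, *Foxo1* and *Ikzf1*, which specify the lineage with *Pax5*, had log2 fold changes of -0.13, -0.30, -0.00 and -0.23. *Arid3a*, a DNA-binding factor gene listed with fetal lymphoid genes, fell from 36.8 and 31.8 to 17.4 and 16.5 TPM (log2 fold change -0.97, limma adjusted p = 0.037). *Bcl2l1*, the gene of the survival factor Bcl-xL, was the only one of 12 tested Bcl2 family genes that passed. It fell from 95.6 and 92.3 to 55.5 and 47.1 TPM (log2 fold change -0.86, limma adjusted p = 0.04).

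The genes called lower also held *Cldn4*, *Fcmr*, *Grb7*, *Lpcat2*, *Bcl7a* and *Auts2*. *Bcl7a*, encoding a subunit of the SWI/SNF chromatin remodeler, was the most abundant of the 16, at 546 and 469 TPM in *Pax5*(+/-) and 152 and 135 TPM in *Pax5*(R31Q/-) libraries (log2 fold change -1.81, limma adjusted p = 0.00699). *Grb7*, an SH2 adaptor gene, had 78.5 and 52.3 against 15.1 and 16.0 TPM. *Fcmr*, encoding an Fc receptor for IgM, had 30.9 and 17.1 against 3.03 and 5.22 TPM, and its adjusted p of 0.0454 from limma was the second highest of the 16. *Cldn4*, a claudin gene, *Lpcat2*, a lysophospholipid acyltransferase gene, and *Auts2* had log2 fold changes of -2.60, -1.95 and -1.74. The 2 called genes outside the naming rule were *Asb2* and *Slc52a3*, named here after their values were seen, with log2 fold changes of -1.64 and -1.59. *Dkk3*, the gene of a secreted Dickkopf protein, passed the test but not the TPM minimum, with 5.48 and 3.33 against 0.09998 and 0.0614 TPM.

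**Figure D2:**
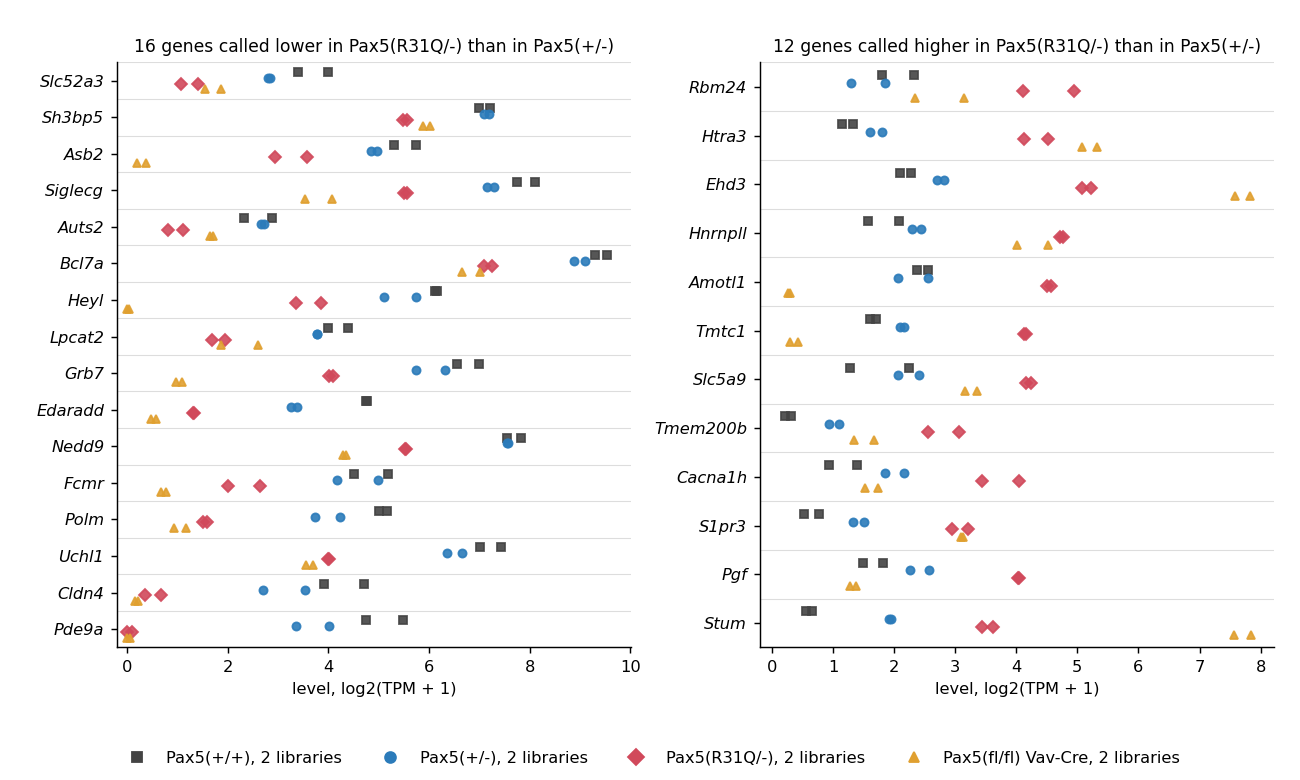
Each mark is 1 library, with its level as log2(TPM + 1) on the horizontal axis, for the 16 genes called lower and the 12 genes called higher in Pax5(R31Q/-) than in Pax5(+/-). Red diamonds (Pax5(R31Q/-)) lie left of blue circles (Pax5(+/-)) for all genes in the left panel and right of them for all genes in the right panel, a separation not independent of the calls, while orange triangles (Pax5(fl/fl) Vav-Cre) lie on either side.

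The genes called higher were, by size of change, *Rbm24*, *Htra3*, *Ehd3*, *Hnrnpll*, *Amotl1*, *Tmtc1*, *Slc5a9*, *Tmem200b*, *Cacna1h*, *S1pr3*, *Pgf* and *Stum*. All 12 had a mean under 6 TPM in *Pax5*(+/-) libraries and between 6.11 and 34.6 TPM in *Pax5*(R31Q/-) libraries. *Rbm24*, encoding an RNA-binding regulator of splicing on chromosome 13 from 46418102 to 46431099, had the largest change, from 2.60 and 1.44 to 29.8 and 16.2 TPM. Its log2 fold change was 2.96 ± 0.39 (SE, with a limma adjusted p of 0.0259), with a wide spread in both genotypes. *Hnrnpll*, another splicing regulator gene, was tighter, at 3.903 and 4.40 against 25.2 and 26.3 TPM (log2 fold change 2.38, limma adjusted p = 0.0105).

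*Htra3*, the gene of a secreted serine protease on chromosome 5 from 35652026 to 35679813, had 2.48 and 2.03 TPM in *Pax5*(+/-) and 16.5 and 22.0 TPM in *Pax5*(R31Q/-) libraries (log2 fold change 2.63, limma adjusted p = 0.00437). *Ehd3*, which encodes an ATPase of endosomal recycling, had 6.06 and 5.53 against 36.5 and 32.6 TPM. At a log2 fold change of 2.39 (SE 0.15) it shared the smallest adjusted p with *Nedd9*, 0.00326 from limma. *Amotl1*, an angiomotin family gene, had 3.18 and 4.90 against 22.6 and 21.7 TPM, and *Tmtc1*, the gene of an O-mannosyltransferase, had 3.48 and 3.27 against 17.0 and 16.4 TPM. The remaining called genes encode a sugar transporter (*Slc5a9*), a T-type calcium channel subunit (*Cacna1h*), a sphingosine-1-phosphate receptor (*S1pr3*), a VEGF family ligand (*Pgf*) and the membrane proteins *Tmem200b* and *Stum*, with log2 fold changes from 1.599 to 1.96.

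Other genes passed the test without being called. Among 10 tested progenitor cytokine receptor genes, *Kit* rose from 35.9 and 46.1 to 84.2 and 96.7 TPM (log2 fold change 1.13, limma adjusted p = 0.0328) and 9 did not pass. Kit protein was one of the markers by which pro-B cells were sorted, so the gate bears on this gene. *Il7r*, the gene of the cytokine receptor on which pro-B cells depend, had 255 and 291 against 421 and 379 TPM and did not pass. *Gimap9*, a GTPase gene of lymphocytes, rose from 105 and 98.3 to 285 and 227 TPM (log2 fold change 1.32, limma adjusted p = 0.0333). The values of all 8 tested Gimap genes lay above 0, with a median of 0.54, though *Gimap9* alone passed. *Gimap3* had 24.2 and 34.2 against 86.4 and 53.9 TPM (limma adjusted p = 0.27), and *Gimap4* had 81.6 and 153 against 248 and 232 TPM. *Rgs10*, a regulator of G protein signaling, rose from 69.6 and 55.1 to 171 and 176 TPM and was named after its values were seen. *Mir32* and *Mir7651* also had an adjusted p under 0.05, but each stood at 1 read in either *Pax5*(R31Q/-) library and at 0 in either *Pax5*(+/-) library.

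Most genes of later B cell stages and of trafficking had lower values in *Pax5*(R31Q/-) libraries. Of the 16 tested, 14 had a log2 fold change below 0, with a median of -0.57, and 0 of these 14 passed the test. *Ms4a1*, the CD20 gene, had 24.9 and 19.9 against 1.18 and 4.83 TPM (log2 fold change -2.71, limma adjusted p = 0.0572), and *Fcer2a*, the CD23 gene, had 2.81 and 1.81 against 0.244 and 0.405 TPM. *Cd74*, the invariant chain gene, had 160 and 135 against 49.7 and 75.7 TPM. *Cd2*, whose product was used to exclude pre-B cells in the sort, had 3.15 and 2.84 against 1.38 and 0.899 TPM. The paper reports that *Pax5*(R31Q/-) pre-B cells lack CD2, as Pax5 activates *Cd2* directly. The CD2 part of the gate would therefore not exclude them in that genotype, and the sort also required Kit. In bulk samples, fewer cells of a type and less RNA per cell cannot be told apart, and the part of these later-stage transcripts in the differences of *Siglecg*, *Fcmr* and the other B cell genes was not tested. The 7 listed plasmacytoid dendritic cell markers summed to 261 and 244 TPM in *Pax5*(+/-) and to 143 and 130 TPM in *Pax5*(R31Q/-) libraries, with *Irf8*, also a B cell gene, making up most of it at 231 and 197 against 118 and 106 TPM.

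The lists that describe general cell states held no gene past the test. This was the case for the 15 tested genes of glycolysis, 16 of sterol synthesis, 18 of DNA replication, 18 of the G2/M phase, 16 of the interferon response and 12 immediate early genes, as well as for 11 histone deacetylases and 10 genes of glucose uptake and energy control. Their medians lay between -0.21 and 0.16. Over all genes tested, 0.35% were lower and 0.268% were higher past the test. A count of 0 in lists this short is near that share and marks little. The 6 genes listed as repressed by *Pax5* in the literature, among them *Flt3*, *Notch1* and *Csf1r*, also held 0 that passed. *Flt3* had 18.8 and 21.6 against 23.6 and 23.9 TPM, whereas *Pax5*(fl/fl) *Vav*-Cre libraries had 385 and 356 TPM. Markers of T and NK cells, erythroid cells, megakaryocytes, and stromal and endothelial cells likewise held 0 that passed, and both *Xist* and *Ddx3y* were present in every library, so every library held RNA from cells or mice of both sexes.

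**Figure D3:**
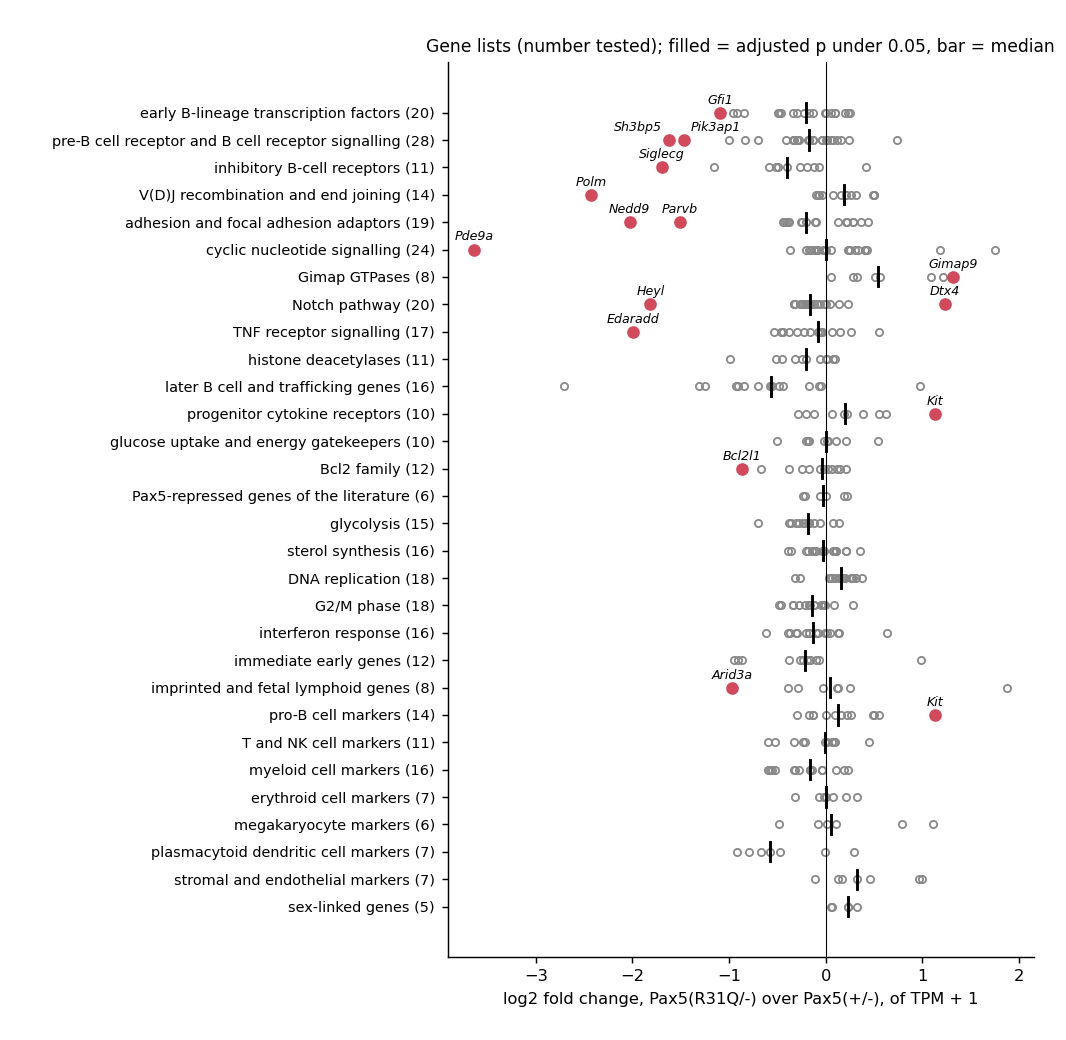
Each circle is the log2 fold change of 1 tested gene, Pax5(R31Q/-) over Pax5(+/-), on the TPM + 1 scale, in rows of gene lists with the number tested in brackets (1 gene each of the B cell receptor, later B cell and pro-B cell lists is not drawn); filled named circles had an adjusted p under 0.05 and black bars are list medians. At most 2 members of a list drawn here passed the test, and the medians of the Gimap and later B cell lists, 0.54 and -0.57, lie away from the median of all genes, 0.01.

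To place these genes in the range between normal and absent *Pax5*, their levels in the 2 other genotypes were examined. The comparison of *Pax5*(fl/fl) *Vav*-Cre with *Pax5*(+/+) shares no library with that of *Pax5*(R31Q/-) with *Pax5*(+/-), although all enter one fit. Below, "on loss of *Pax5*" is short for *Pax5*(fl/fl) *Vav*-Cre libraries, in which the loss and the cell population cannot be told apart. Of the 47 genes lower in *Pax5*(R31Q/-), 44 were lower on loss of *Pax5* at an adjusted p under 0.05 from limma, where 19.7% of all genes tested were lower. The 2 that were higher were *Mgst2*, a glutathione transferase gene, and *Arid3a*, with log2 fold changes of 0.47 and 0.56, and *Tlr12* did not pass. Of the 36 genes higher in *Pax5*(R31Q/-), 19 were higher on loss of *Pax5*, where 16.2% of all genes were, 7 were lower and 10 did not pass. All genes compared had to be expressed enough to pass the first test, which the genes of the background did not. No test was made on these counts.

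The called lower genes differed in how near they came to the level of *Pax5*-deficient cells. *Pde9a* had 0.0483 and 0 TPM in the *Pax5*(fl/fl) *Vav*-Cre libraries, and *Polm* had 1.26 and 0.919 TPM, so that R31Q and *Pax5*-deficient cells did not differ past the test for either (adjusted p = 0.976 and 0.0966 from limma). *Heyl*, in contrast, had 13.5 and 9.27 TPM in *Pax5*(R31Q/-) libraries and 0 and 0.0312 TPM in *Pax5*(fl/fl) *Vav*-Cre libraries (limma adjusted p = 8.12e-05). *Grb7* likewise kept 15.1 and 16.0 TPM where the *Pax5*-deficient libraries had 0.957 and 1.12 TPM. *Sh3bp5* and *Auts2* lay lower in *Pax5*(R31Q/-) than in *Pax5*-deficient libraries. *Sh3bp5* had 46.4 and 43.5 against 58.0 and 63.9 TPM (limma adjusted p = 0.0294), and *Auts2* had 1.15 and 0.746 against 2.27 and 2.12 TPM (limma adjusted p = 0.0426).

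The called higher genes fell into unlike patterns. *Ehd3* and *Stum* were far higher still in *Pax5*(fl/fl) *Vav*-Cre libraries, at 190 and 226 TPM for *Ehd3* and 187 and 228 TPM for *Stum*. *Htra3* had 38.8 and 32.9 TPM there, and *S1pr3* had 7.78 and 7.51 TPM, close to its 8.21 and 6.75 TPM in *Pax5*(R31Q/-) libraries. *Amotl1* and *Tmtc1* were nearly absent on loss of *Pax5*, at 0.2005 and 0.221 TPM and at 0.346 and 0.220 TPM. In the comparison with *Pax5*(+/+), at 4.16 and 4.87 TPM for *Amotl1* and 2.26 and 2.04 TPM for *Tmtc1*, both were lower on loss of *Pax5* (log2 fold changes -2.18 and -1.30, adjusted p = 0.000201 and 0.000756 from limma). *Pgf*, with 1.42 and 1.599 TPM, and *Cacna1h*, with 1.88 and 2.31 TPM, were also low in *Pax5*-deficient libraries. In all, the R31Q mean was above the means of the 3 other genotypes for 8 of the 12 called higher genes, which were these 4, *Rbm24*, *Hnrnpll*, *Slc5a9* and *Tmem200b*. The call fixed that the R31Q mean was above that of *Pax5*(+/-), so this count is not independent of it. Against *Pax5*-deficient libraries, 7 of the 12 were higher past the test. *Hnrnpll*, with 15.1 and 21.8 TPM in *Pax5*-deficient libraries, was not among them (limma adjusted p = 0.143). *Rbm24* had 4.08 and 7.79 TPM in *Pax5*-deficient libraries, below the 29.8 and 16.2 TPM of the R31Q libraries (limma adjusted p = 0.0111).

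**Figure D4:**
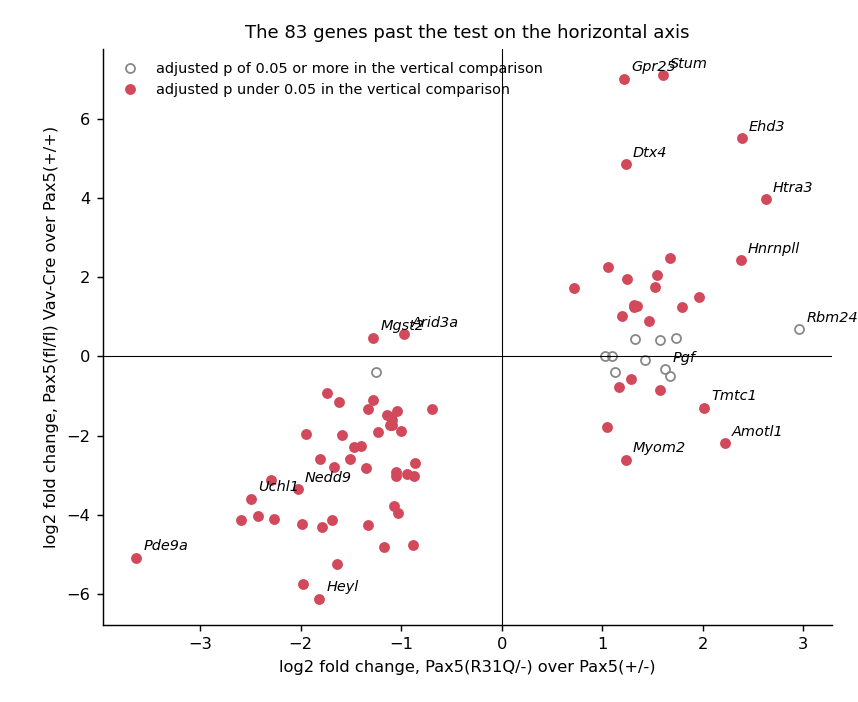
Each point is 1 of the 83 genes at an adjusted p under 0.05 between Pax5(R31Q/-) and Pax5(+/-), whose log2 fold change is on the horizontal axis; the log2 fold change of Pax5(fl/fl) Vav-Cre over Pax5(+/+), from other libraries, is on the vertical axis, and filled points had an adjusted p under 0.05 there. Of the 47 genes left of 0, 44 were lower on the vertical axis past the test, while the 36 genes right of 0 split into 19 higher, 7 lower and 10 not past the test.

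The genes most sensitive to the loss of a single allele were then examined at this equal dose. *Col5a3*, *Hdac11* and *Enpep* had the smallest adjusted p between *Pax5*(+/-) and *Pax5*(+/+) and passed the test. *Edaradd*, *Rd3l* and *Speer2* shared the next smallest, 0.0541 from limma, and did not pass. *Col5a3*, a collagen gene, had 10.4 and 10.3 TPM in *Pax5*(+/+), 0.121 and 0.0845 TPM in *Pax5*(+/-) and 0.0470 and 0.0361 TPM in *Pax5*(R31Q/-) libraries. Its transcript was already near absent in the heterozygote, and the log2 fold change of R31Q over heterozygote was -0.08 (limma adjusted p = 0.933). *Hdac11*, a histone deacetylase gene, had 40.6 and 48.7 TPM, then 5.38 and 6.74 TPM, then 2.53 and 2.56 TPM (R31Q over heterozygote, log2 fold change -0.99, limma adjusted p = 0.0728). Its level did not fall further in *Pax5*(fl/fl) *Vav*-Cre libraries. These had 13.7 and 11.3 TPM, above *Pax5*(+/-) and above *Pax5*(R31Q/-) libraries (R31Q against *Vav*-Cre, limma adjusted p = 0.000284). *Enpep*, encoding the BP-1 surface aminopeptidase of early B cells, had 22.6 and 15.8 TPM, then 2.36 and 2.88 TPM, then 0.0682 and 0.0175 TPM, and passed between R31Q and heterozygote with a log2 fold change of -1.79 (limma adjusted p = 0.02). *Edaradd*, with 26.0 and 26.2 TPM in *Pax5*(+/+) libraries, had 8.54 and 9.35 TPM in *Pax5*(+/-) and 1.48 and 1.52 TPM in *Pax5*(R31Q/-) libraries, and was among the genes called lower. *Speer2* had nearly equal values in these last 2 genotypes, at 9.95 and 9.44 TPM in *Pax5*(+/-) and 9.95 and 10.2 TPM in *Pax5*(R31Q/-) libraries. By contrast, *Nedd9* and *Sh3bp5* were at nearly the level of *Pax5*(+/+) in the heterozygote. They had 225 and 185 TPM and 127 and 148 TPM in *Pax5*(+/+) libraries, with log2 fold changes of heterozygote over wild type that did not pass the test.

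Pax5 ChIP-seq peaks of 1 library from *Rag2*(-/-) pro-B cells, which carry wild-type *Pax5*, and 1 library from *Pax5*(R31Q/-) pro-B cells were set against the expression differences. The peak lists come from short-term cultured cells, have no replicates, and lack a *Pax5*(+/-) counterpart, so dose and amino acid change cannot be told apart in them. The wild-type list held 41983 peaks and the R31Q list 18821, and 62.5% of the wild-type peaks met no R31Q peak by at least 1 bp. Peaks within 1 kb of a transcription start site (TSS) were assigned to the gene. Of the 13398 tested genes with an annotated TSS, 8974 had a wild-type peak there, and for 380 of these (4.23%) no such peak was met by an R31Q peak.

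Unmatched TSS peaks made up a larger share of the peak-bearing lower genes than of all peak-bearing genes, a description without a test. Of the 47 genes lower in *Pax5*(R31Q/-) cells, 38 had a wild-type TSS peak, and for 12 of these (31.6%, exact binomial interval 17.5% to 48.7%) it was unmatched in the R31Q list. The share of all genes depended on the overlap required. With at least 50% of both peaks shared, it was 15.9% for all genes and 34.2% for the 47 lower genes. For the 16 called lower genes the figures were 11 and 4 (36.4%), the 4 being *Pde9a*, *Cldn4*, *Heyl* and *Siglecg*. The other 8 genes, listed after their values were seen, were *Dkk3*, *4922502D21Rik*, *Abcb4*, *Mgst2*, *Map7*, *Plpp3*, *H1fx* and *Slamf7*. *Mgst2* had an R31Q peak elsewhere at its TSS, centered 1 bp from it, that met neither of its wild-type peaks. *Pde9a* had 3 wild-type peaks within 1 kb of its annotated TSSs and 0 R31Q peaks. One of them, chr17:31386078-31386306, was centered 42 bp upstream of a TSS. The *Siglecg* peak, chr7:43407930-43408569, was centered 10 bp downstream of its TSS. For the remaining 26 genes at least 1 TSS peak was matched. *Nedd9*, *Uchl1*, *Polm*, *Bcl7a* and *Pik3ap1*, all with lower mRNA, were among these, so presence in both lists went with lower expression in these cases. Peak height was not in the files. TSS peaks of the wild-type list that were unmatched were narrower, with a median width of 313 bp, than matched ones, with 553.5 bp, and the part of peak strength in these shares was not tested.

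Among the genes higher in *Pax5*(R31Q/-) cells, a wild-type TSS peak was found for 11 of 36 (30.6%), against 67.0% of all genes tested, and for 2 of the 12 called higher genes, *Ehd3* and *Pgf*. At *Ehd3* the wild-type peak, centered 751 bp upstream of the TSS, was unmatched, and an R31Q peak was centered 92 bp downstream. Of the 25 higher genes with no wild-type TSS peak, 6 (24%, exact binomial interval 9.36% to 45.1%) had an R31Q TSS peak, against 22.2% of all such genes tested. For the 12 called higher genes it was 4 of 10 (40%, exact binomial interval 12.2% to 73.8%), and 50% with a TSS window of 0.2 or 2.5 kb, where all genes had 21.9% and 23.8%. The 6 were *Rbm24*, *Hnrnpll*, *Cacna1h*, *S1pr3*, *Sytl2* and *Cd244a*, the last 2 named after their values were seen. This count was added after the peak lists had been examined. The intervals cover counting error only.

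**Figure D5:**
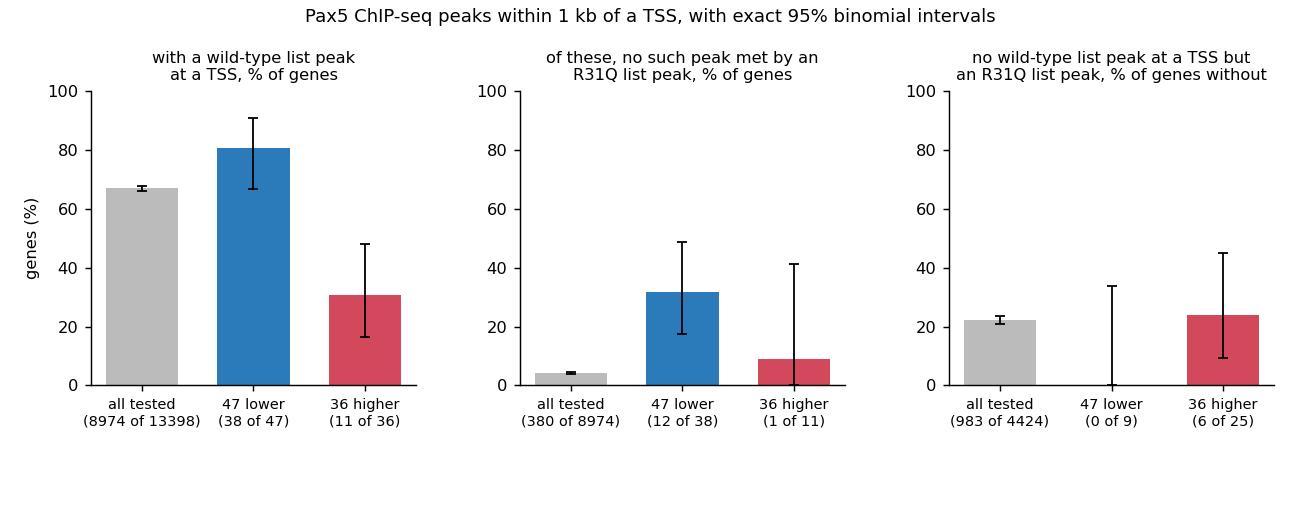
Bars give the percent of genes, with exact 95% binomial intervals as lines, for all genes tested, the 47 genes lower and the 36 genes higher in Pax5(R31Q/-) at an adjusted p under 0.05; the panels show genes with a wild-type list peak within 1 kb of a TSS, the share of these with no matched peak, and the share of genes without a wild-type list peak that have an R31Q list peak. With an overlap of at least 1 bp, the unmatched share is 31.6% for lower genes and 4.23% for all genes (34.2% and 15.9% with at least 50% of both peaks), whereas the share with an R31Q list peak only is 24% for higher genes and 22.2% for all genes.

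The letters GCNTGAC, part of the sequence that the paired domain of Pax5 is known to prefer, were searched on both strands in the 300 bases about the midpoint of each TSS peak. They were found in 15.1% of wild-type TSS peaks that were matched, 15.1% of those that were unmatched and 9.08% of R31Q TSS peaks with no wild-type match, against 10.7% of 32851 RefSeq promoters of the same length. The forms differed, as GCGTGAC was in 6.57% of matched and 3.32% of unmatched wild-type peaks, and GCATGAC was in 1.73% of matched and 5.13% of unmatched ones. The split by form was made after the values were seen, and a match is not evidence of binding at these letters. Among the 12 lower genes with unmatched peaks, *Dkk3*, *Map7* and *Abcb4* held a match there, and their sites are shown with the letters in capitals. The sites of *Edaradd*, in its matched peak (another, unmatched *Edaradd* peak held GCCTGAC), of *Cgas*, in a matched peak of a higher gene, and of *Pgf*, in a peak of the R31Q list alone, are shown for comparison. The reference sequences of GRCm38 are written 5′ to 3′ on the strand of the match.
*Dkk3*, unmatched, chr7:112157696-112157724, plus strand: gattcttttccGCATGACtagcgtcctga
*Map7*, unmatched, chr10:20171439-20171467, minus strand: agggtgtgcgaGCGTGACcagcaagctgt
*Abcb4*, unmatched, chr5:8894758-8894786, minus strand: taggcccttctGCCTGACagaaagccgta
*Edaradd*, matched, chr13:12520498-12520526, plus strand: cctgaacggcgGCATGACcgcacacgcta
*Cgas*, matched, chr9:78442921-78442949, minus strand: cggcgggcggaGCGTGACggggacaccac
*Pgf*, R31Q list alone, chr12:85177422-85177450, plus strand: gacctgagtgcGCGTGACcccgcagggcg
The GCATGAC form thus stood both in the unmatched *Dkk3* peak and in the matched *Edaradd* peak. Both genes had lower mRNA in *Pax5*(R31Q/-) cells, at 0.09998 and 0.0614 TPM for *Dkk3* and 1.48 and 1.52 TPM for *Edaradd*.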

How the data were processed

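RNA from sorted bone marrow pro-B cells was sequenced as 50-nt reads. The authors removed ribosomal reads, aligned with STAR (2.4.2) to mm10 and deposited TPM values per gene. Bowtie2 2.3.5.1 and MACS are named for the ChIP-seq. The deposited peak files hold positions, and their score column of 0 throughout was not used. The authors tested counts with DESeq2; here limma 3.58.1 in R 4.3.3 was run on log2(TPM + 1) of all 4 genotypes (8 libraries), with eBayes and a trend, and checked on simulated data. All 18206 genes above 0 in at least 2 libraries gave whole reads (tolerance 0.0001 reads), and limma-voom on these reads was an alternative. Positions came from RefSeq on GRCm38, matched for 24780 of 25579 symbols. The members, gene lists and tests were chosen with earlier results of these data known. Named genes were up to 12 called genes per direction, by size of change, whose libraries did not overlap, genes the study names, list members past the test (at most 4 a list), the 5 genes with the smallest adjusted p between *Pax5*(+/-) and *Pax5*(+/+) with ties, called genes with unmatched TSS peaks, and those named as chosen afterwards. The R31Q ChIP-seq sample was taken as *Pax5*(R31Q/-) from its genotype label, although its description names *Rag2*. Alternatives were other pseudocounts, filters, scalings, variance settings, thresholds, TSS windows and overlaps, and leaving out libraries. Plots were drawn with matplotlib 3.10.9. Some genes are not reported here.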

Additional observations from a re-analysis of the deposited data

How the results depend on the processing

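The direction of the 83 genes at an adjusted p under 0.05 was kept in every alternative tried. In the 15 refits that kept the 4 libraries (changes of the calling rule alone refit nothing), 932 of 1245 gene values stayed past the threshold, and with 1 of the 4 left out, 7 of 332 did. The lone library of a genotype was then assumed to vary like the others. Leaving out single libraries of any genotype gave 0 to 10 genes called lower, 0 to 10 called higher, 0 to 47 lower and 0 to 46 higher at an adjusted p under 0.05, and 0 to 13 lower and 0 to 4 higher list members. Genes called lower numbered 16, but 36 at a fold of 2, 7 without a filter, 10 with only the 2 genotypes and 10 without the *Pax5*(fl/fl) *Vav*-Cre libraries. Genes called higher numbered 12, but 27 at a fold of 2, 20 with limma-voom, 6 without a filter and 7 with only the 2 genotypes. At an adjusted p under 0.05, the 47 lower and 36 higher genes became 115 and 78 with limma-voom and 19 and 18 without a filter, and a pseudocount of 0.1 gave 21 higher. The 12 lower and 4 higher list members became 7 and 1 without a filter. Only the 2 genotypes gave 6 lower list members, and 8 were higher with limma-voom, 8 with median-ratio scaling and 7 with quantile normalization. The cause of these shifts was not tested. *Pax5* stayed between 0.06 and 0.14. The unmatched share of called lower genes was 31.03% to 41.7% over TSS windows, overlaps and a fold of 2, each changed alone, while that of all genes was 3.16% to 5.05% over the windows, and 15.9% with at least 50% of both peaks shared. No paired analysis was possible because the labels carry no replicate numbers, and those used here follow accession order and pair nothing. Depth limits transcripts of few reads, such as *Pde9a* in *Pax5*(R31Q/-).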

Other observations

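Further genes past the test in both directions belonged to no list and are given as values, chosen after they were seen. No group is inferred from them. *Slc1a5*, a glutamine transporter gene, had 305 and 276 TPM in *Pax5*(+/-) and 138 and 133 TPM in *Pax5*(R31Q/-) libraries. *Elovl6*, which encodes a fatty acid elongase, had 36.6 and 41.5 against 13.8 and 16.1 TPM, and *Bcat1*, a branched-chain amino acid transaminase gene, had 15.9 and 17.6 against 8.35 and 7.09 TPM. *Acss1*, the gene of a mitochondrial acetyl-CoA synthetase, had 140 and 136 against 88.6 and 81.0 TPM. Each of these 4 passed with an adjusted p between 0.0155 and 0.0461 from limma. *Slamf7*, a receptor gene of the SLAM family, fell from 144 and 136 to 82.1 and 69.1 TPM (log2 fold change -0.88), while *Cd244a*, of the same family, rose from 7.11 and 7.66 to 25.2 and 21.2 TPM (log2 fold change 1.53).

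Of the higher genes outside the called set, 4 are given here in all genotypes, again chosen after their values were seen. *Sytl2*, encoding a Rab27 effector of vesicle transport, had 3.62 and 3.43 TPM in *Pax5*(+/+), 5.01 and 5.09 TPM in *Pax5*(+/-), 16.5 and 17.6 TPM in *Pax5*(R31Q/-) and 4.86 and 5.26 TPM in *Pax5*(fl/fl) *Vav*-Cre libraries. *Gng4*, a G protein gamma subunit gene, had, in the same order, 0.288 and 0.595, then 0.476 and 0.318, then 3.51 and 3.41, then 0 and 0.0218 TPM. *Myom2*, a myomesin gene, had 5.05 and 6.52, then 3.24 and 3.62, then 9.52 and 9.31, then 0.141 and 0.0714 TPM, and *Pax5*(R31Q/-) against *Pax5*(+/+) did not pass (limma adjusted p = 0.109). *Gpr25*, an orphan receptor gene, had 0.807 and 0.534, then 1.35 and 1.09, then 4.76 and 3.63, then 195 and 233 TPM.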
